A study of Mus musculus with 12 samples.

Results

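Transcripts of 10 autophagy genes were followed in the mouse cerebellum: Ulk1, Becn1, Atg5, Atg7, the ATG8 family genes Map1lc3a, Map1lc3b, Gabarap, Gabarapl1 and Gabarapl2, and the cargo receptor gene Sqstm1. They are 10 of 12393 genes on the array, named as a list of the core machinery. No rule on their values was used, but earlier results of these data were known when they were chosen. The platform annotation gives them 22 of 22690 probe sets, short-oligonucleotide sets that each report 1 intensity. All 10 genes passed the filter on low intensity and were among the 7835 genes tested.

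The arrays held RNA of whole cerebellum from BALB/c mice, 1 animal per array and 3 per group, without any treatment. The 4 groups were Npc1-/- at P49 (postnatal day 49), Npc1+/+ at P49, Npc1-/- at P21 and Npc1+/+ at P21, all kept under the same housing on standard chow. The labels do not name the Npc1 allele, and they give 11 animals as female and Npc1-/- P49 replicate 1 as male. Npc1 encodes a protein of late endosomes and lysosomes that moves cholesterol out of them.

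Macroautophagy encloses cytoplasm in a double membrane, the autophagosome, and delivers it to the lysosome. The ULK kinase complex starts the process, a phosphatidylinositol 3-kinase complex built on Beclin marks the membrane, and enzymes related to those of ubiquitin attach ATG8 proteins to its lipids. Receptors such as p62 then tie ubiquitin-tagged cargo to the ATG8 proteins, and in neurons, Purkinje cells among them, loss of Atg5 or Atg7 in mice leads to inclusions and cell death. Stored lipid in NPC1-deficient cells is known to go with more lipidated LC3 and p62 protein, which transcripts do not measure.

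In the fit of all arrays, no difference between Npc1-/- and Npc1+/+ cerebellum was established for the transcripts of these genes. None of the 10 passed the limma test (Benjamini-Hochberg adjusted p below 0.05 over 7835 genes) at P21, at P49 or in the interaction, the difference between the genotype differences at P49 and P21. At an unadjusted p below 0.05 there were 1 at P21 (Sqstm1), 2 at P49 (Sqstm1 and Atg7) and 0 for the interaction. Over all genes 790, 887 and 661 of 7835 had such a p, so the counts of the 10 do not stand out. Of all genes, 0.0511% were called higher and 0.0128% lower in Npc1-/- at P21. At P49 1.52% were called higher and 1.14% lower, and for the interaction 0.345% and 0.204%. The median difference of the 10 genes was 0.07 at P21 and 0.00 at P49 on the log2 scale. For all genes tested it was -0.00 and -0.02. The median size of the differences was 0.15 and 0.11 for the 10 genes, beside 0.15 and 0.13 for all genes. With 3 animals per group, these results do not show that the genotypes are alike. The 95% intervals at P49 ran from -0.92 to -0.01 for Atg7 and from 0.01 to 0.57 for Sqstm1. Npc1 itself did not pass, with differences of -1.43 at P49 and -1.95 at P21. Sqstm1 passed at P49 when only the P49 arrays were fitted (limma adjusted p = 0.0186).

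Gabarapl1 and Sqstm1 had the largest positive age differences of the 10 genes in each genotype. That of Sqstm1 did not pass the limma test in either (adjusted p = 0.115 in Npc1-/- and 0.299 in Npc1+/+). Gabarapl1 was 1.30-fold higher at P49 than at P21 in Npc1-/- mice, the only called difference among the 10 genes. No gene of the 10 was called for age in Npc1+/+ mice, where 2 had an unadjusted p below 0.05, again Gabarapl1 and Sqstm1. Such a p was seen there for 783 of 7835 genes. The share of all genes called higher at P49 was 2.78% in Npc1-/- and 0.166% in Npc1+/+, and the share called lower was 3.45% and 0.536%. Levels are log2(intensity + 16) after quantile normalization, differences are of these values, and the added 16 makes differences of dim genes too small. Probe sets differ in brightness for reasons other than RNA amount, so no level is set against that of another gene.

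**Figure D1:**
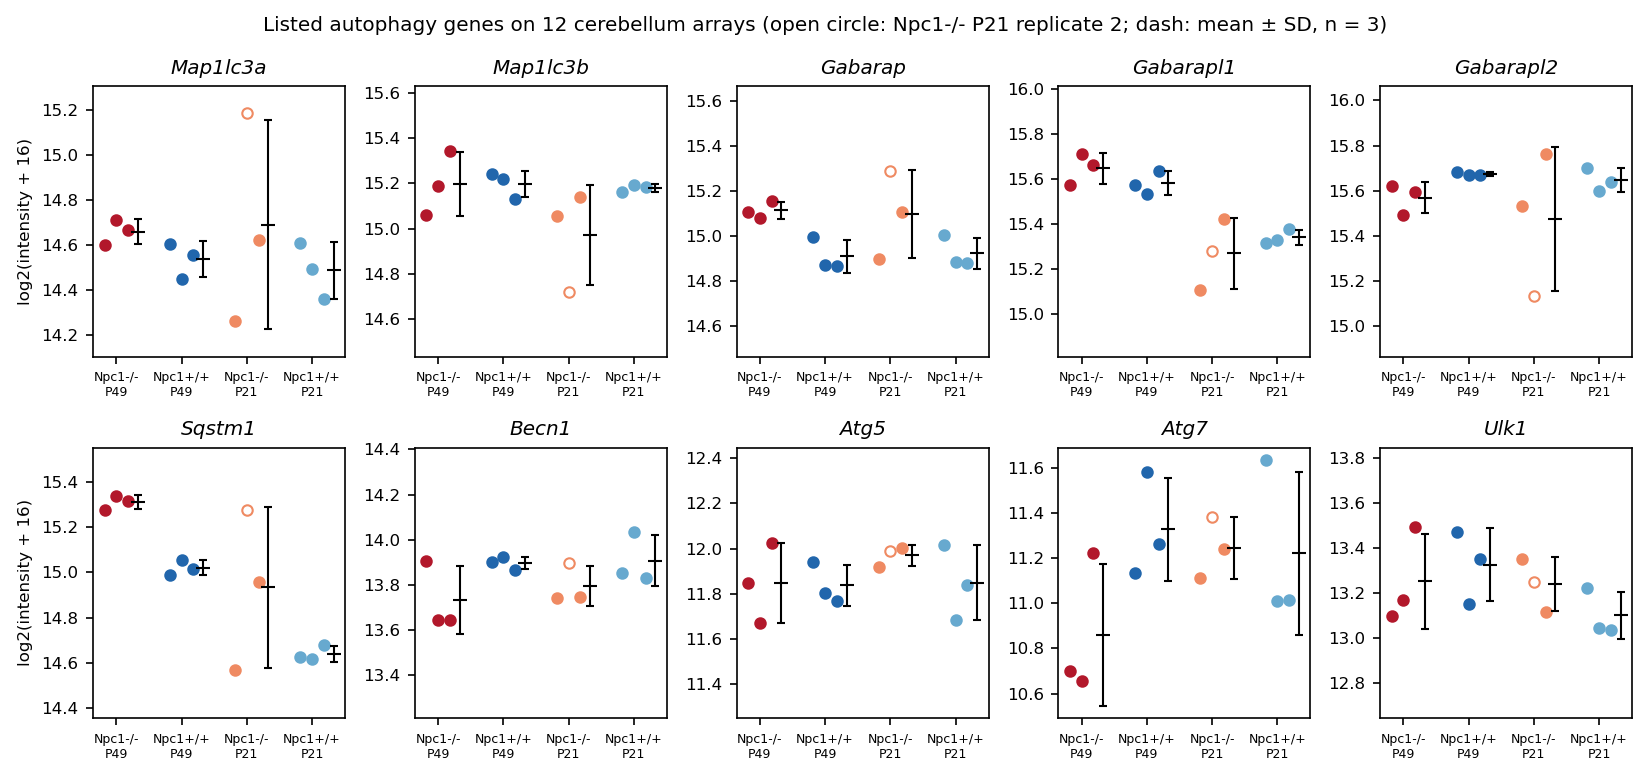
Level of each of the 10 genes on every array, as log2(intensity + 16), in Npc1-/- and Npc1+/+ at P49 and then at P21, with 1 point per animal and the mean ± SD (n = 3) beside the points. Sqstm1 is highest in the 3 Npc1-/- P49 arrays and in Npc1-/- P21 replicate 2 (open circle), which is also the highest array for Map1lc3a and Gabarap and the lowest for Map1lc3b and Gabarapl2.

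A few facts of the arrays bear on these values. The array of Npc1-/- P21 replicate 2 was the highest or lowest of the 12 for 48% of the 7835 genes, against 8.4% to 19.1% for the other 11 arrays, and for 4 of the 10 autophagy genes. Npc1 itself was at 8.25 to 10.53 on the 6 Npc1-/- arrays and at 11.06 to 11.75 on the 6 Npc1+/+ arrays, so the groups did not overlap, although neither age passed the test (adjusted p = 0.0591 at P49 and 0.101 at P21). By a rule on the sex-linked gene Xist alone, 4 arrays went against the label. Npc1-/- P49 replicate 1, labelled male, had Xist at 15.63 and Eif2s3y, which is Y-linked, at 7.93. The 3 others, labelled female, had Xist more than 2 below the highest array. Xist and Eif2s3y were at 13.01 and 9.25 on Npc1-/- P21 replicate 2, and at 13.36 and 12.67 on Npc1-/- P21 replicate 3. On Npc1+/+ P21 replicate 2 they were at 9.28 and 12.72. Eif2s3y was at 8.91 on Npc1+/+ P49 replicate 1, which the rule did not set apart. Results were therefore also computed without single arrays, without the 3 such arrays at P21 and without all 4. Leaving out the 3 or the 4 leaves Npc1-/- P21 replicate 1 as the only array of its group, which is then assumed to vary like the other groups, and it is the lowest of the 12 for Sqstm1, Gabarapl1 and Map1lc3a.

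The tissue markers were those of cerebellum, and some cell type markers differed between the genotypes. Summed intensities of 9 granule neuron genes ran from 496936 to 518011 on Npc1-/- P49 arrays and from 516124 to 544956 on Npc1+/+ P49 arrays. The sum of 13 microglia genes ran from 122908 to 157720 in Npc1-/- and from 24767 to 25419 in Npc1+/+ at P49, and from 43393 to 54202 and 24553 to 31022 in the same genotypes at P21. Of the 10 microglia genes tested, 9 were called higher in Npc1-/- at P49 and 2 at P21 (Aif1, Trem2 and Itgam were below the filter). The sum of 10 Purkinje cell genes ran from 309209 to 458067 in Npc1-/- and from 627975 to 649943 in Npc1+/+ at P49, and all 9 tested were called lower. All 8 brainstem genes on the array were below the filter. In whole tissue, fewer cells of a type and less RNA per cell cannot be told apart, and the part of these cell types in the autophagy values was not tested.

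Ulk1 encodes the kinase that starts autophagosome formation when mTORC1 is off. Its level was 13.10, 13.17 and 13.49 in Npc1-/- at P49 and 13.47, 13.15 and 13.35 in Npc1+/+ at P49. At P21 it was 13.35, 13.25 and 13.12 in Npc1-/- and 13.22, 13.05 and 13.04 in Npc1+/+. The groups overlapped at both ages. The genotype difference was -0.07 ± 0.13 (SE, 95% interval -0.35 to 0.20) at P49 and 0.14 ± 0.13 (-0.14 to 0.42) at P21. In Npc1+/+ mice Ulk1 differed by 0.22 ± 0.13 between P49 and P21 (adjusted p = 0.622), and in Npc1-/- mice by 0.01 ± 0.13 (0.970).

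Becn1 encodes Beclin, the scaffold of the phosphatidylinositol 3-kinase complexes. Npc1-/- P49 arrays had 13.91, 13.65 and 13.65, and Npc1+/+ P49 arrays had 13.90, 13.92 and 13.87. In 2 of the 3 Npc1-/- animals the level lay below every Npc1+/+ animal of that age, and in the other it did not. At P21 the levels were 13.74, 13.90 and 13.75 in Npc1-/- and 13.85, 14.04 and 13.83 in Npc1+/+. The genotype difference was -0.17 ± 0.10 at P49 (95% interval -0.39 to 0.05, adjusted p = 0.639) and -0.11 ± 0.10 at P21 (-0.33 to 0.11, adjusted p = 0.689). Neither differed beyond the spread between animals by the limma test.

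Atg7 is the E1-like enzyme that activates both ATG12 and the ATG8 proteins, and Atg5 is joined to ATG12 in the complex that directs ATG8 proteins to the membrane. The promoters of these genes are shown because both hold CACGTG, the E-box core of the CLEAR element through which TFEB and TFE3 act on lysosomal genes, while only Atg7 was at an unadjusted p below 0.05 for genotype. Each sequence, from RefSeq on GRCm38.p6, runs 5′ to 3′ along the gene from 250 bases before its start through the first 50 bases, with CACGTG in capitals.
Atg7 chr6:114670846-114671145 (plus strand): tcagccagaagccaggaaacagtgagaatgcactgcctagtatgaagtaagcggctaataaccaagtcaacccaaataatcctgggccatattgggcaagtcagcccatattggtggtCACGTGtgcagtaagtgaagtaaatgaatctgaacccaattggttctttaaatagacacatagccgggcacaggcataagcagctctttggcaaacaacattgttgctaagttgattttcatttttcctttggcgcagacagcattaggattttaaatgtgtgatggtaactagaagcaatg
Atg5 chr10:44268089-44268388 (plus strand): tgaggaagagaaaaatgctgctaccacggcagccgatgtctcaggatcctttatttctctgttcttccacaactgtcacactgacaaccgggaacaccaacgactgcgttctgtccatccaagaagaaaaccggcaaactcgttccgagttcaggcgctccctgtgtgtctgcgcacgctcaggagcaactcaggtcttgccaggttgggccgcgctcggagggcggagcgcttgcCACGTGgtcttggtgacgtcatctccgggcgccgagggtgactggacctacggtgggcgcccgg

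The motif begins 132 bases before the start in Atg7 and 14 bases before it in Atg5. It reads the same on both strands, it was found in these 2 of the 8 promoters that the table holds for the 10 genes, and 7.15% of 32851 mouse promoters of that length contain it. A match is a run of letters and was not tested as a binding site. The antioxidant response element core TGACNNNGC, searched on both strands, was found once, in Map1lc3b (TGACTCGGC, its first base 5 bases from the start), and in 12.4% of all promoters. The forkhead core GTAAACA was in none of the 8 on either strand, and in 3.65% of all promoters. None of these motifs overlapped another in the 8 promoters, and Map1lc3a and Becn1 had no entry.

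Atg7 had the largest genotype difference of the 10 genes at P49. It was at 10.70, 10.66 and 11.22 in Npc1-/- and at 11.14, 11.58 and 11.26 in Npc1+/+ at that age, so 2 Npc1-/- animals lay below all Npc1+/+ animals and the ranges overlapped through the other. The difference was -0.47 ± 0.21, or 0.723-fold (95% interval -0.92 to -0.01 on the log2 scale, adjusted p = 0.417). At P21 Atg7 was at 11.11, 11.39 and 11.24 in Npc1-/- and at 11.64, 11.01 and 11.02 in Npc1+/+, a difference of 0.02 ± 0.21. The interaction was -0.49 ± 0.30 (adjusted p = 0.731). With all probe sets of Atg7 averaged the P49 difference came to -0.02, so its size rested on 1 probe set.

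Atg5 overlapped between the genotypes at both ages. It was at 11.85, 11.67 and 12.02 in Npc1-/- and 11.94, 11.80 and 11.77 in Npc1+/+ at P49, and at 11.92, 11.99 and 12.00 in Npc1-/- and 12.02, 11.69 and 11.84 in Npc1+/+ at P21. The genotype difference was 0.01 ± 0.13 at P49 (95% interval -0.28 to 0.30) and 0.12 ± 0.13 at P21 (-0.16 to 0.41).

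The ATG8 family is the set of ubiquitin-like proteins that are joined to the autophagosome membrane. It has an LC3 branch (Map1lc3a and Map1lc3b), used to follow autophagosomes, and a GABARAP branch (Gabarap, Gabarapl1 and Gabarapl2), whose founding protein was found through its binding to GABA-A receptors. None of the 5 genes was called for genotype at either age.

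Map1lc3a was at 14.60, 14.71 and 14.67 in Npc1-/- and 14.61, 14.45 and 14.56 in Npc1+/+ at P49, a difference of 0.12 ± 0.17 (95% interval -0.24 to 0.48). At P21 it was at 14.26, 15.18 and 14.62 in Npc1-/-, the widest spread of any group of the 10 genes (SD 0.46), and at 14.61, 14.49 and 14.36 in Npc1+/+. The P21 difference of 0.20 ± 0.17 became -0.04 without Npc1-/- P21 replicate 2 (adjusted p = 0.965).

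Map1lc3b was at 15.06, 15.19 and 15.34 in Npc1-/- and 15.24, 15.22 and 15.13 in Npc1+/+ at P49, a difference of -0.00 ± 0.11 (95% interval -0.23 to 0.23). At P21 the 3 Npc1-/- arrays, at 15.05, 14.72 and 15.14, lay below the 3 Npc1+/+ arrays, at 15.16, 15.19 and 15.18. That difference of -0.21 ± 0.11 did not pass (adjusted p = 0.516), and it was -0.08 without Npc1-/- P21 replicate 2. Map1lc3b was the only 1 of the 10 genes whose genotype groups did not overlap at P21, where this held for 11.8% of all genes.

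Gabarap was higher in each Npc1-/- animal than in any Npc1+/+ animal at P49. The levels were 15.11, 15.08 and 15.16 in Npc1-/- against 15.00, 14.87 and 14.87 in Npc1+/+, a difference of 0.20 ± 0.10 that missed the threshold (95% interval -0.01 to 0.41, adjusted p = 0.471). At P21 they were 14.90, 15.29 and 15.11 in Npc1-/- against 15.00, 14.88 and 14.88 in Npc1+/+, a difference of 0.17 ± 0.10 that was 0.08 without Npc1-/- P21 replicate 2. Gabarapl2 lay the other way at P49. It was at 15.62, 15.49 and 15.60 in Npc1-/- against 15.69, 15.67 and 15.67 in Npc1+/+, a difference of -0.11 ± 0.12 (adjusted p = 0.849). At P21 Gabarapl2 was at 15.53, 15.13 and 15.76 in Npc1-/- against 15.70, 15.60 and 15.64 in Npc1+/+, a difference of -0.17 ± 0.12 that was 0.00 without Npc1-/- P21 replicate 2. With Sqstm1, these made 3 of the 10 genes whose genotype groups did not overlap at P49, beside 23.2% of all genes.

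Gabarapl1 rose with age in Npc1-/- mice. Its levels were 15.57, 15.71 and 15.66 in Npc1-/- at P49 and 15.11, 15.28 and 15.42 in Npc1-/- at P21, and the ages did not overlap. The difference was 0.38 ± 0.09 (95% interval 0.19 to 0.56, adjusted p = 0.0223). In Npc1+/+ mice the levels were 15.57, 15.53 and 15.64 at P49 and 15.32, 15.33 and 15.38 at P21, again without overlap, a difference of 0.24 ± 0.09 (95% interval 0.05 to 0.43) that did not pass (adjusted p = 0.328). The age differences of the 2 genotypes were not shown to differ (interaction 0.14 ± 0.12, adjusted p = 0.850), and the genotypes overlapped at both ages, with differences of 0.07 ± 0.09 at P49 and -0.07 ± 0.09 at P21.

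Cell type markers moved in the same comparison, P49 against P21 in Npc1-/- mice. Of the microglia genes tested 9 of 10 were called higher, and of the Purkinje cell genes 8 of 9 were called lower. Of 8 oligodendrocyte genes 3 were called lower, and of 9 astrocyte genes 2 were called higher and 2 lower. Of the red blood cell list the 1 gene tested was called lower (-3.27, adjusted p = 0.00498). The sum of its 3 genes on the array was 16612, 4138 and 3282 for Npc1-/- P21 replicates 1 to 3, and 888 to 1306 in Npc1-/- at P49. Npc1-/- P21 replicate 1, with the highest of these sums, was also the lowest array for Gabarapl1. Their part in the Gabarapl1 difference was not tested.

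The Gabarapl1 call was a narrow one. The adjusted p over the alternatives ran from 0.00604 to 0.326, and the call ended without Npc1-/- P21 replicate 1 (0.0551), without Npc1-/- P49 replicate 2 (0.110) and without Npc1-/- P49 replicate 3 (0.0852). It also ended with values as deposited (difference 0.31, adjusted p = 0.0522) and with each array centred on its median (0.15, 0.326), where the median of all genes moved to -0.13. It ended too with only the 6 Npc1-/- arrays fitted (0.144) and without a mean-variance trend (0.0584). The Gabarapl1 difference was positive under each alternative, from 0.15 to 0.58. Gabarapl1 varied little within groups, with an SD of 0.09 that lies at percentile 6.4 of the genes tested, whose median SD was 0.19.

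The promoters of Gabarapl1 and Sqstm1 are shown next, since these genes had the largest positive age differences of the 10 in each genotype. Of these differences only that of Gabarapl1 in Npc1-/- was called. They come from the same table and cover the same window, and no letters are in capitals because none of the 3 motifs above was found in either.
Gabarapl1 chr6:129532942-129533241 (plus strand): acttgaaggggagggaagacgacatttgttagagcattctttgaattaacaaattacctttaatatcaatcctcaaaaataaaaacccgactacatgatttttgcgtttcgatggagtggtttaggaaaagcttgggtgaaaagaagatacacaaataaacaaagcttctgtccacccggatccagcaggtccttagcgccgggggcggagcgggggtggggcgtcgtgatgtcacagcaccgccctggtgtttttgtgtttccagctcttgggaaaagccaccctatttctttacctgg
Sqstm1 chr11:50210771-50211070 (minus strand): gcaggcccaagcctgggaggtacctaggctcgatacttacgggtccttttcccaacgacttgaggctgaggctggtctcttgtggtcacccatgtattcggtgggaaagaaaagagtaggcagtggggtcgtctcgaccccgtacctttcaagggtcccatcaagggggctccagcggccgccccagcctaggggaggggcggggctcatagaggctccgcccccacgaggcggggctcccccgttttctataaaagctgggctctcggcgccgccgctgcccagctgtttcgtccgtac

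**Figure D2:**
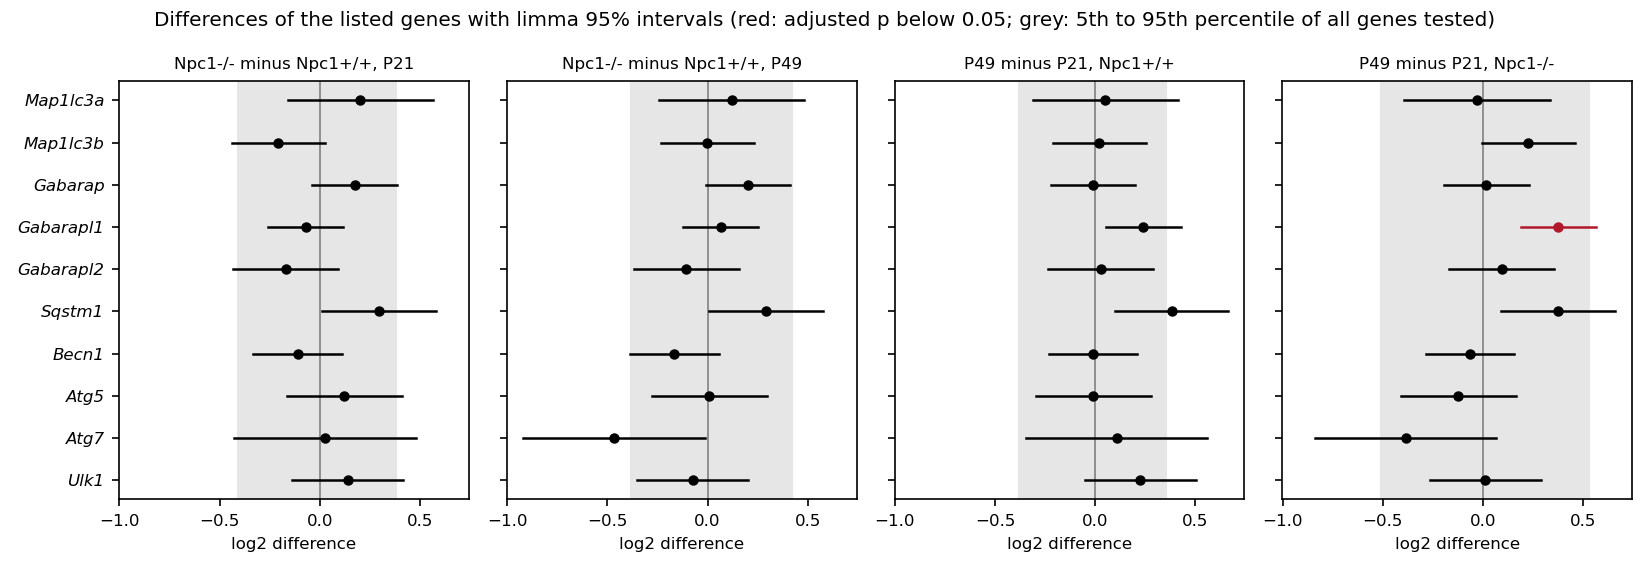
Log2 differences of the 10 genes with limma's 95% intervals in 4 comparisons, Npc1-/- minus Npc1+/+ at P21 and at P49, and P49 minus P21 in Npc1+/+ and in Npc1-/-. The grey band spans the 5th to 95th percentile of the 7835 genes tested, and the red interval of Gabarapl1 (0.19 to 0.56) marks the only adjusted p below 0.05.

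Sqstm1 encodes p62, which binds ubiquitin and ATG8 proteins, is itself degraded by autophagy, and holds KEAP1 away from the transcription factor NRF2. It had the largest positive genotype difference of the 10 genes at both ages. At P49 the level was 15.28, 15.34 and 15.31 in Npc1-/- and 14.99, 15.06 and 15.01 in Npc1+/+, with means of 15.31 ± 0.03 and 15.02 ± 0.03 (SD, n = 3 each). Every Npc1-/- animal was above every Npc1+/+ animal by more than the spread within either group. The difference of 0.29 ± 0.13 was 1.22-fold (95% interval 0.01 to 0.57 on the log2 scale), and it did not pass in the fit of all 12 arrays (adjusted p = 0.425).

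That fit takes 1 spread for Sqstm1 from all 4 groups, and its Npc1-/- P21 arrays were far apart, at 14.57, 15.28 and 14.96, against 14.62, 14.61 and 14.68 in Npc1+/+ at P21. When only the P49 arrays were fitted, the same difference had an adjusted p of 0.0186, in a fit that called 2.97% of all genes higher. Without the 3 P21 arrays that went against their sex label the adjusted p was 0.0263, with 2.67% of all genes called higher. Without Npc1-/- P21 replicate 2 alone it was 0.0998. Over all alternatives the P49 difference of Sqstm1 ran from 0.19 to 0.31 with an adjusted p from 0.0186 to 0.777.

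The P21 difference of Sqstm1, 0.29 ± 0.13 (adjusted p = 0.487), was 0.12 without Npc1-/- P21 replicate 2 (adjusted p = 0.851). The value without the 3 arrays against their sex label, -0.09, sets the single array of Npc1-/- P21 replicate 1 against 2 Npc1+/+ arrays. Within the Npc1-/- P21 group the order of Sqstm1 was also that of the summed choroid plexus genes, at 7779, 180677 and 92153 for replicates 1 to 3. In Npc1+/+ at P21 those sums were 7577, 192646 and 176923 while Sqstm1 stayed between 14.61 and 14.68. A part of choroid plexus tissue in these values was not tested.

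Sqstm1 was also higher at P49 than at P21 in each genotype. The age difference was 0.38 ± 0.13 in Npc1-/- (adjusted p = 0.115) and 0.38 ± 0.13 in Npc1+/+ (adjusted p = 0.299), and the interaction was -0.00 ± 0.19. In Npc1+/+ the 3 arrays at P49 lay above the 3 at P21. The difference passed when only those 6 arrays were fitted (adjusted p = 0.0236), where 126 of 7835 genes were called in either direction. In Npc1-/- the ages shared the value 15.28. Without Npc1-/- P21 replicate 2, the highest of its group for Sqstm1, the difference was 0.54 (adjusted p = 0.00488). That fit called 587 of 7834 genes in either direction. Age groups that did not overlap were seen for 2 of the 10 genes in Npc1+/+ (Gabarapl1 and Sqstm1), beside 21.4% of all genes, and for 1 in Npc1-/- (Gabarapl1), beside 22.5%.

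Several marker sums differed in the Npc1-/- P49 arrays in which Sqstm1 was high. Besides the microglia and Purkinje cell sums above, the choroid plexus sum ran from 79584 to 212743 in Npc1-/- and from 9042 to 36116 in Npc1+/+ at P49. None of the 3 choroid plexus genes tested was called by limma (lowest adjusted p = 0.350). The sum of 9 astrocyte genes ran from 404686 to 436996 in Npc1-/- and from 282252 to 298864 in Npc1+/+, with 2 of the 9 called higher. These genes did not move together, with 6 differences above 0 and 3 below, from -0.44 to 3.30 (median 0.19). For age in Npc1+/+ mice, the microglia sum ran from 24767 to 25419 at P49 and from 24553 to 31022 at P21. The oligodendrocyte sum ran from 392863 to 417440 at P49 and from 514843 to 619585 at P21, and 5 of its 8 tested genes were called lower. The part of these cell types in the Sqstm1 values was not tested.

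**Figure D3:**
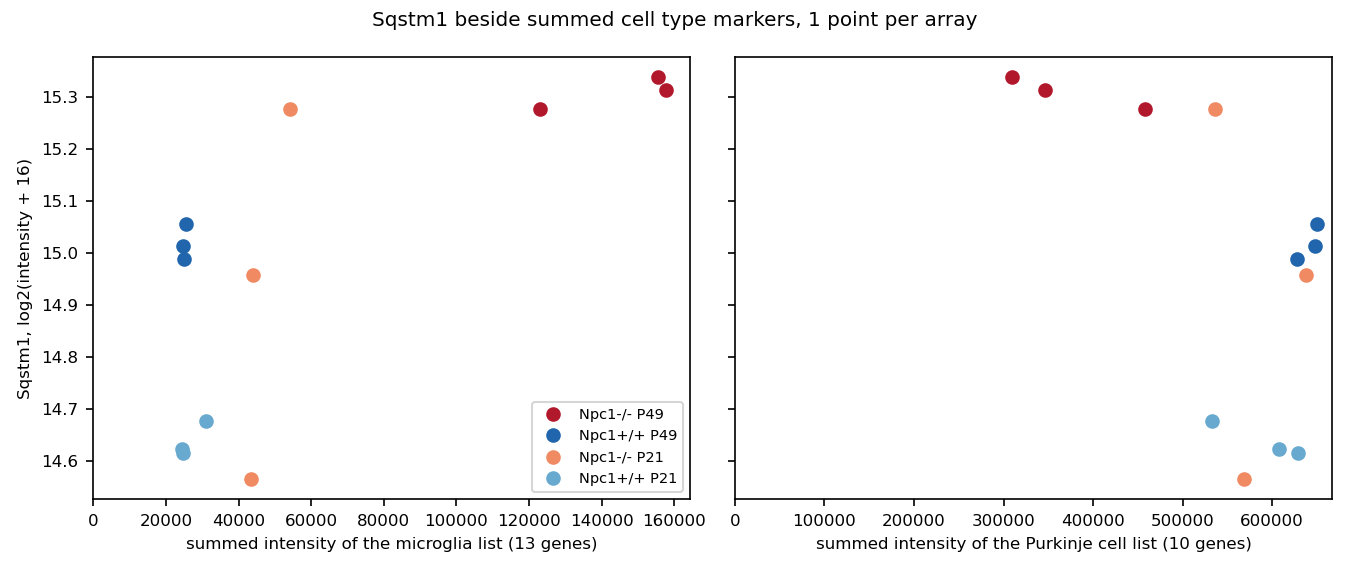
Level of Sqstm1 as log2(intensity + 16) against the summed intensity of the microglia list (left) and of the Purkinje cell list (right), with 1 point per array and the 4 groups in colours. The Npc1-/- P49 arrays lie at the top with the highest microglia and lowest Purkinje cell sums. Npc1-/- P21 replicate 2 is level with the lowest of them, at 15.28, with a microglia sum of 54202. Npc1-/- P21 replicate 1, with a microglia sum of 43393, is the lowest array for Sqstm1. The Npc1+/+ arrays of both ages overlap in their microglia sums and not in Sqstm1.

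The 10 genes have 22 probe sets, of which 18 passed the filter, and further probe sets were read as a check on the ones that stood for a gene. None of the 18 was called for genotype at P49, where 2.08% of 13576 probe sets were called in either direction, and 2 had an unadjusted p below 0.05, those standing for Sqstm1 and Atg7. In the fit of genes, 887 of 7835 had such a p. For age in Npc1-/-, where 4.57% were called, the call of Gabarapl1 was made on 1 of its 2 probe sets (adjusted p = 0.0267 in this fit). The identifier of that probe set ends in s_at, which marks probes that can match several transcripts. The other Gabarapl1 probe set, without that mark, was at 14.50, 14.53 and 14.34 at P49 and at 14.12, 14.29 and 14.14 at P21, without overlap. Its difference of 0.27 ± 0.11 did not pass (adjusted p = 0.188). Both probe sets of Ulk1 were higher at P49 than at P21 in Npc1+/+, by 0.22 ± 0.13 and 0.28 ± 0.15, and in Npc1-/- they gave 0.01 ± 0.13 and 0.29 ± 0.15.

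Some probe sets of a gene did not give the same value. For Atg7 the second tested probe set gave 0.03 ± 0.45 at P49, against -0.47 ± 0.21 for the first, and another, which is dim, gave 0.36 ± 0.61. For Becn1 the second tested probe set gave 0.10 ± 0.12, against -0.17 ± 0.10. The 3 tested probe sets of Map1lc3b gave -0.00 ± 0.11, 0.13 ± 0.20 and 0.03 ± 0.14 at P49, and those of Atg5 gave 0.01 ± 0.14, 0.06 ± 0.19 and -0.06 ± 0.26.

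A dim Becn1 probe set stood apart. It was at 8.53, 8.49 and 9.00 in Npc1-/- and at 10.31, 11.17 and 10.90 in Npc1+/+ at P49, without overlap, a difference of -2.12 ± 0.57. It lies below the intensity filter on average, and in a fit of all probe sets without a filter it did not pass (adjusted p = 0.116, with 0.451% of probe sets called lower). Its identifier marks it as one whose probes can bind other transcripts. The identifier of the probe set standing for Becn1 ends in s_at, which marks probes that can match several transcripts. The other 3 Becn1 probe sets gave -0.17, 0.10 and 0.13, so the fall was not shared within the gene.

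**Figure D4:**
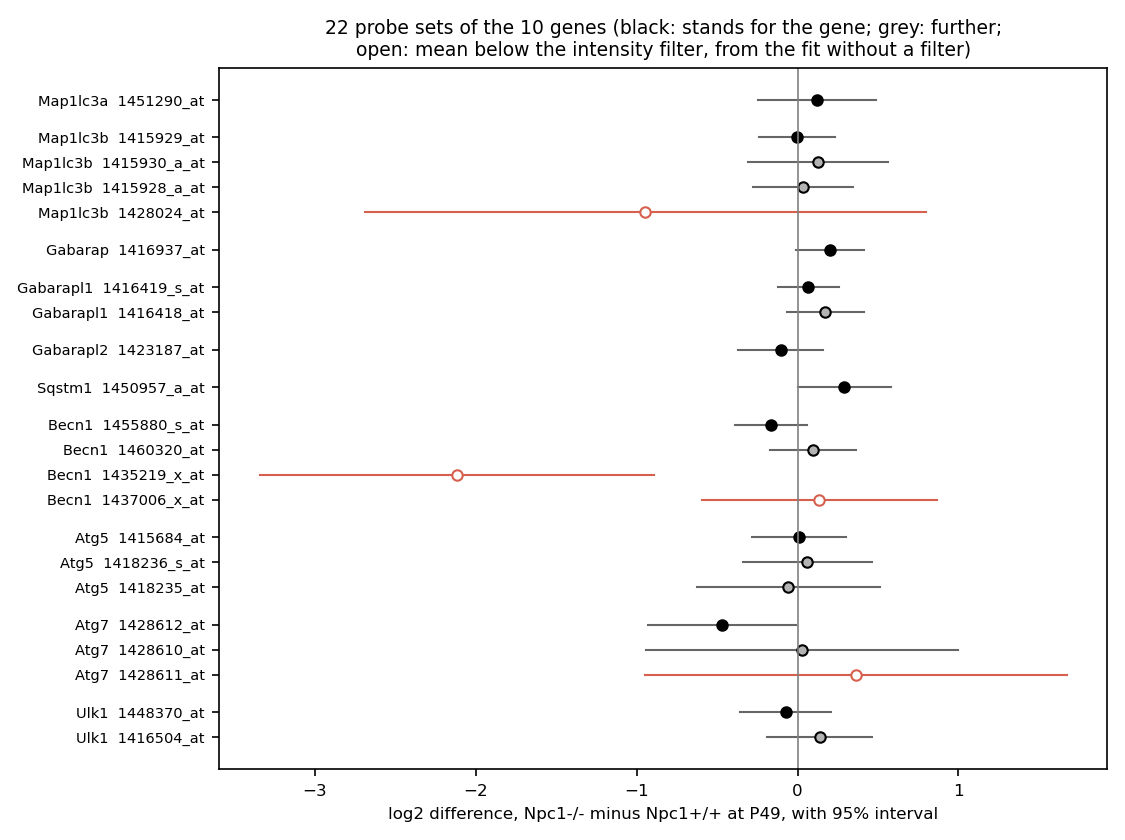
Log2 difference, Npc1-/- minus Npc1+/+ at P49, with its 95% interval for each of the 22 probe sets of the 10 genes, those standing for the gene in black, further ones in grey, and those below the filter as open circles from the fit without a filter. Intervals of the dim Becn1 probe set, at -2.12, and of the probe sets standing for Sqstm1 and Atg7 leave out 0, and those of the other 19 include it.

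Outside the 10 genes, 78 others of the pathway were listed by role, of which 61 were on the array and 57 were tested. None was called for genotype by limma at either age, for the interaction, or for age in Npc1+/+, and 7 of 57 had an unadjusted p below 0.05 at P21, 3 at P49, 2 for the interaction and 6 for age in Npc1+/+. Over all genes these counts were 790, 887, 661 and 783 of 7835. The median genotype difference of the 57 genes was 0.01 at P49 and 0.02 at P21, and the sizes of their differences had a median of 0.11 at P49, beside 0.13 for all genes.

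The gene with the smallest p at P49 in each role list was as follows. Of the ULK complex, Atg13, a regulatory subunit, gave 0.24 ± 0.14 (adjusted p = 0.604). Of the phosphatidylinositol 3-kinase list, Vmp1, an endoplasmic reticulum protein needed for autophagosome formation, gave -0.18 ± 0.10 (0.525). Of the genes for lipid supply to the growing membrane, Wdr45, which binds phosphoinositides, gave 0.20 ± 0.13 (0.692). None of these 3 passed.

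Of the conjugation list, Atg4b, a protease that processes ATG8 proteins, gave -0.25 ± 0.13 (adjusted p = 0.488). Of the cargo receptors, Tollip, which binds ubiquitin, gave -0.19 ± 0.10 (0.510). Of the genes for fusion with the lysosome, Tecpr1, which binds ATG5 on autophagosomes, gave 0.26 ± 0.11 (0.393). Of the regulators, Mitf, a transcription factor related to TFEB, gave 0.42 ± 0.17 at P49 (0.352), the largest difference among the 57, with Npc1-/- and Npc1+/+ arrays that did not overlap.

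For age in Npc1-/- mice 2 of the 57 genes were called, both of them regulators, and 10 had an unadjusted p below 0.05. Over all genes 488 of 7835 were called (2.78% higher and 3.45% lower) and 1635 had an unadjusted p below 0.05, so the counts of the 57 were no larger than the background. Foxo3, a transcription factor that can switch on autophagy genes, fell by 0.65 ± 0.14 (adjusted p = 0.0165), with means of 13.57 at P49 and 14.22 at P21. Sesn3, a sestrin that holds back mTORC1, rose by 0.54 ± 0.12 (adjusted p = 0.0217), with means of 13.58 at P49 and 13.04 at P21. In Npc1+/+ mice the same age differences were -0.07 ± 0.14 for Foxo3 and 0.43 ± 0.12 for Sesn3, without a call, and the interactions were not called (adjusted p = 0.406 for Foxo3 and 0.924 for Sesn3). Both are named because they were called, after their values were seen. The Foxo3 call ended without Npc1-/- P49 replicate 1 (0.0677) or 2 (0.0725), with its probe sets averaged (0.303) and without the 3 P21 arrays against their sex label (0.123), where 1 Npc1-/- P21 array was left. The Sesn3 call ended without Npc1-/- P49 replicate 2 (0.113) or 3 (0.0820) and with median centring (0.104).

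The p62 protein also acts through KEAP1 and NRF2, so 10 genes of that link were listed, of which 9 were tested. None was called for genotype at either age, and 1 had an unadjusted p below 0.05 at each, beside 790 of 7835 genes at P21 and 887 at P49. Nfe2l2, which encodes NRF2, had the smallest p at P49, with a difference of 0.40 ± 0.16 (adjusted p = 0.309) and no overlap of the groups. For age in Npc1-/- mice 2 of the 9 were called higher, beside 2.78% of all genes. Srxn1, a sulfiredoxin that repairs peroxiredoxins, rose by 0.53 ± 0.11 (adjusted p = 0.00930), and Gclc, the catalytic subunit of the first enzyme of glutathione synthesis, rose by 0.47 ± 0.11 (adjusted p = 0.0261), both named after their values were seen. Without Npc1-/- P49 replicate 2 neither was called (0.0693 for Srxn1 and 0.110 for Gclc), and Gclc was also not called without Npc1-/- P49 replicate 1 (0.0521) or 3 (0.0892). With only the Npc1-/- arrays fitted, none of Foxo3 (0.0848), Sesn3 (0.0923), Srxn1 (0.0906) and Gclc (0.142) was called.

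Averaging the probe sets of a gene also ended the calls of Srxn1 (0.512) and Gclc (0.0592), and median centring ended them at 0.0621 and 0.122. Without the 3 P21 arrays against their sex label neither was called, nor was Sesn3 (0.0547), in fits that hold 1 Npc1-/- P21 array. The directions of these 4 genes stayed as given under each alternative.

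**Figure D5:**
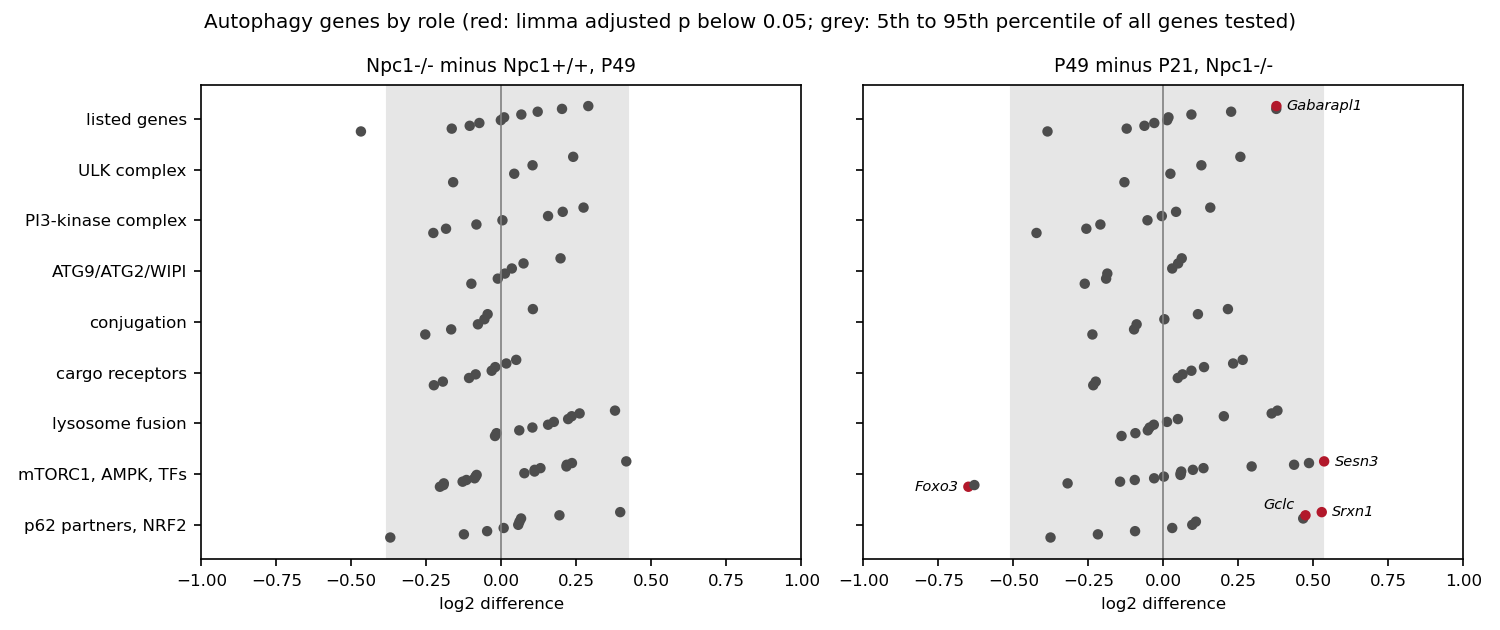
Log2 differences of the 10 genes (top row) and of other autophagy genes by role, Npc1-/- minus Npc1+/+ at P49 (left) and P49 minus P21 in Npc1-/- (right), with 1 point per gene and the 5th to 95th percentile of all 7835 genes in grey. No point of the left panel is called, and the red points of the right panel are Gabarapl1, Sesn3, Foxo3, Gclc and Srxn1.

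The profile over the 12 arrays that was most like that of Atg7, the gene of the 10 with the smallest p at P49, was sought among the other 7834 genes by the root mean square distance of log2 values after subtracting each gene's mean. The nearest 5 were Trim16 at 0.16, Mark1 at 0.17, Rad50 at 0.18, and Lmbr1l and Csnk2a1 at 0.19. The profile of Atg7 itself had a root mean square of 0.29 about its mean, so the distances are not small beside the profile itself. None of the other 9 autophagy genes was among these 5.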

How the data were processed

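Total RNA of 12 cerebella was hybridised to 12 Affymetrix arrays, per the labels. The authors deposited 1 linear intensity per probe set and array. The summarisation method is not given in the sources used here. The trimmed mean (2% at each end) was 5002 on every array, which shows a common scaling. One protocol text gives P21 for all animals, and the time point labels were used. Of 22690 probe sets 64 are controls, 20380 had 1 gene symbol in the platform annotation, 691 several and 1555 none. Symbols were updated by Entrez identifier with a RefSeq table of GRCm38.p6.

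Intensities were taken as log2(value + 16) and quantile normalized. Each gene was represented by its single-symbol probe set of highest mean, and genes below the 40th percentile of probe set means (intensity 959.1) were left out, which kept 7835 of 12393. Contrasts of 4 group means over all 12 arrays were tested with limma 3.58.1 in R 4.3.3 (eBayes with a trend, two-sided), with Benjamini-Hochberg adjustment over all genes tested and a threshold of 0.05. Errors of differences are limma standard errors with 3 animals per group. The procedure was run on simulated data whose changes were larger than any difference of the 10 genes. It did not test how well differences as small as theirs are found. Background and detection calls were not used, and the number of arrays limits the precision.

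The 10 genes, the other lists and the alternatives were chosen with earlier results of these data known. The text names the 10 genes, the gene with the smallest p at P49 of each role list, any gene called for genotype, and the 5 profiles nearest to that of the listed gene with the smallest p at P49. Alternatives were other scalings, pseudocounts, filters and probe set rules, only the groups compared, no trend, a replicate block, and arrays left out.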

Additional observations from a re-analysis of the deposited data

How the results depend on the processing

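Differences of 59 gene results were recomputed under 25 alternatives, which gave 1465 values, many of them from the same fit. Of these, 1413 kept their side of the threshold, 32 lost a call, 20 gained one, and none called a gene in the opposite direction. Direction was counted for called results alone, since uncalled differences near 0 changed sign in places. Among the 10 genes 0 were called for genotype at P21 and for the interaction under each alternative. At P49, 1 was called for genotype, Sqstm1, with only the groups compared, with 3 arrays left out and with 4 arrays left out. For age in Npc1+/+, 1 was called, Sqstm1, under the same alternatives. For age in Npc1-/-, 0 were called with values as deposited, with arrays centred on their median, with only the groups compared and without a trend. There, 2 were called, Gabarapl1 and Sqstm1, with 3 or 4 arrays left out, but these fits hold 1 Npc1-/- P21 array, the lowest of the 12 for both genes, and take its spread from the other groups. Leaving out 1 array gave 0 to 2 for age in Npc1-/-, with 0 without Npc1-/- P21 replicate 1 or Npc1-/- P49 replicate 2 or 3, and 2 without Npc1-/- P21 replicate 2. The replicate block gave 0 for genotype at P49 and P21, 0 for the interaction, 0 for age in Npc1+/+ and 1 for age in Npc1-/-, as without it. The numbers were not taken to pair the animals. Deviations of same-numbered arrays correlated from -0.18 to 0.19, and 5 of 12 pairs were over 0.1. All 3 correlations were positive for genotype at P49 (0.19, 0.11 and 0.08) and for age in Npc1+/+ (0.16, 0.09 and 0.12). In the other comparisons the signs were mixed, and a shared source of these deviations was not tested.

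Counts over all genes moved more. At P49 208 genes were called for genotype, 400 with only the groups compared, 356 with 3 arrays left out and 365 with 4, and 100 to 321 without 1 array. At P21 5 were called, 8 with values as deposited, 3 with the stricter filter or averaged probe sets, 1 with only the groups compared, and 3 to 27 without 1 array. The interaction had 43, 100 with 4 arrays left out, and 18 to 66 without 1. Age in Npc1+/+ had 55, 36 without a trend, 126 with only the groups compared or 3 arrays left out, 143 with 4, and 14 to 112 without 1. Age in Npc1-/- had 488, 746 with median centring, 126 with only the groups compared, and 171 to 639 without 1. Median centring moved the median of all genes to -0.10 for the interaction and -0.13 for age in Npc1-/-. Detection was not measured, so the depth of dim probe sets is not known. The cause of these shifts was not tested.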

Other observations

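The profiles nearest to those of Sqstm1 and Gabarapl1 were looked up after their values were seen, over the same 12 arrays and 7834 genes. For Sqstm1 they were Cyp2d22 (distance 0.09), Nfe2l1, Efhd2, Naaa and Shisa5 (each 0.11), beside a root mean square of 0.28 for Sqstm1 itself. Nfe2l1 encodes a transcription factor of proteasome genes and Naaa a lysosomal amidase. Their genotype differences at P49 were 0.26 for Cyp2d22, 0.11 for Nfe2l1, 0.13 for Efhd2, 0.29 for Naaa and 0.36 for Shisa5, against 0.29 for Sqstm1.

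For Gabarapl1 they were Gprasp1 and Tmem47 (each 0.08), Anp32e, Pkm and Dnajb9 (each 0.09), beside 0.17 for Gabarapl1 itself. Their age differences in Npc1-/- mice were 0.33 for Gprasp1, 0.50 for Tmem47, 0.28 for Anp32e, 0.34 for Pkm and 0.32 for Dnajb9, against 0.38 for Gabarapl1. These lists describe likeness over 12 arrays and carry no test. Both sets of genes were picked by that likeness, so group differences like those of Sqstm1 and Gabarapl1 follow from the choice.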
